A study of Mus musculus with 41 samples.

Results

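The largest joined clusters of H3K27ac regions were described in proliferating chondrocytes (PC) and hypertrophic chondrocytes (HC) of the embryonic mouse. The clusters were chosen by their H3K27ac coverage alone. In each cell type's intersected H3K27ac list, autosomal regions 5 kb or less apart were joined, and the 300 clusters with the most covered base pairs were taken. That gave 300 of 20551 clusters in the PC list and 300 of 18447 in the HC list. A cluster was called shared when it overlapped a taken cluster of the other list by 1 bp, which left 161 PC-only, 159 HC-only and 280 shared clusters (139 of the PC list and 141 of the HC list). Overlapping clusters were merged into 457 loci, 137 of them shared, among 24401 loci in all.

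PC were primary chondrocytes of E13.5 cartilage carrying Tg(Col2a1-cre)1Star and Gt(ROSA)26Sortm1(EYFP)Cos. HC were primary chondrocytes of E15.5 cartilage carrying Tg(Col10a1-cre)1427Vdm and the same reporter allele. Each driver is the promoter of a collagen gene, Col2a1 of cartilage and Col10a1 of hypertrophic cartilage, and the cells were sorted by flow cytometry. Cell type, age and Cre transgene changed together, so they cannot be told apart. Each of 6 histone marks had 3 PC and 2 HC libraries, and 11 IgG samples were not analysed here. Nothing in the labels says whether libraries came from separate embryos, litters or pools, so a p-value reflects the spread among the libraries, which may be technical.

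H3K27ac is the acetyl mark of active promoters and enhancers, and long clusters of it often lie at genes that define a cell type. H3K9ac and H3K4me3 mark active promoters, H3K36me3 lies along transcribed genes, H3K27me3 is laid down by Polycomb complexes at silenced genes, and H3K9me3 marks heterochromatin. In cartilage, Sox9 with Sox5 and Sox6 drives the matrix genes of proliferating chondrocytes, whereas Runx2 and Mef2c drive hypertrophy, in which Col10a1 is made.

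The clusters held 36 of the 919 autosomal microRNA hairpins in the RefSeq table, 9 in PC-only, 12 in HC-only and 15 in shared clusters. A microRNA is a short RNA that represses messages matching its seed, bases 2 to 8, which are in capitals below. The sequences show which microRNAs sat inside clusters of each class and which of them share a seed. They are from the RefSeq table for GRCm38.p6, 5′ to 3′.
miR-140-3p, PC-only, in Wwp2 at chr8:107551288-107551308 (+): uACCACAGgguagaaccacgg
miR-199a-5p, shared, in Dnm3 at chr1:162217844-162217866 (+): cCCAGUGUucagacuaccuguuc
miR-214-3p, shared, in Dnm3 at chr1:162223438-162223459 (+): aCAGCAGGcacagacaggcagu
miR-196b-5p, shared, in the HoxA cluster at chr6:52230129-52230150 (-): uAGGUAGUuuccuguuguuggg
miR-196a-5p, shared, in the HoxC cluster at chr15:102973365-102973386 (+): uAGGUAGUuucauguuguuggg
miR-675-5p, shared, in the H19 region at chr7:142577112-142577133 (-): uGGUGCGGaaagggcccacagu
miR-132-3p, HC-only, in the cluster at Hic1, chr11:75173723-75173744 (+): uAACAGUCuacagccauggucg
miR-212-3p, HC-only, in the cluster at Hic1, chr11:75173443-75173464 (+): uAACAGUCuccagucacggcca
miR-21a-5p, HC-only, in the cluster at Vmp1, chr11:86584120-86584141 (-): uAGCUUAUcagacugauguuga
The seed AGGUAGU was shared by miR-196a-5p and miR-196b-5p, and AACAGUC by miR-132-3p and miR-212-3p. miR-140 is a cartilage microRNA lying inside Wwp2, which encodes a ubiquitin ligase, and that gene held the PC-only cluster with the most covered base pairs.

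Promoter windows from the same table run from 250 bases before to 50 bases after a gene's start. Windows free of H3K27me3 in every PC library and wholly covered in both HC libraries, or the reverse, are shown for 6 genes because they carry the result on H3K27me3 given further on. CpG dinucleotides, which are dense where Polycomb complexes gather in mammals, are in capitals.
Col27a1, PC-only cluster, covered in HC, chr4:63215162-63215461 (+): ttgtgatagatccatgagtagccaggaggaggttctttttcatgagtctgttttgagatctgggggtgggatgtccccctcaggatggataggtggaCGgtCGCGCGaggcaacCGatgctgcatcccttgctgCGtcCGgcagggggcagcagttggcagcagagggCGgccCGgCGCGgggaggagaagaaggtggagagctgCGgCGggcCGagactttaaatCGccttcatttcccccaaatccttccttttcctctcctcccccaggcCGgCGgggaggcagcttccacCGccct
Pth1r, PC-only cluster, covered in HC, chr9:110743637-110743936 (-): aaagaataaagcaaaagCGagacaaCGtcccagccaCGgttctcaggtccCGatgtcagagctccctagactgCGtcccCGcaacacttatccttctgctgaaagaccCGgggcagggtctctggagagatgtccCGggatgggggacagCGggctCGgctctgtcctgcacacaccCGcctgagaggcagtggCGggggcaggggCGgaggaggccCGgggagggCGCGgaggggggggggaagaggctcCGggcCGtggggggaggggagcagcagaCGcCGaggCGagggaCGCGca
Tpm1, shared cluster, covered in HC, chr9:67049164-67049463 (-): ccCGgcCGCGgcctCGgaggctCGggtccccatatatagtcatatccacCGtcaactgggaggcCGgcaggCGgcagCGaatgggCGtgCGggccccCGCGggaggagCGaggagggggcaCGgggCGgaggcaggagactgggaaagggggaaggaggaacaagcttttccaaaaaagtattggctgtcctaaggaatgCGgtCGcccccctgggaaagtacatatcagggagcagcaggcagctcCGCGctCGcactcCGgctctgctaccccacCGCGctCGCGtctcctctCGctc
Sox6, HC-only cluster, covered in HC, chr7:116030998-116031297 (-): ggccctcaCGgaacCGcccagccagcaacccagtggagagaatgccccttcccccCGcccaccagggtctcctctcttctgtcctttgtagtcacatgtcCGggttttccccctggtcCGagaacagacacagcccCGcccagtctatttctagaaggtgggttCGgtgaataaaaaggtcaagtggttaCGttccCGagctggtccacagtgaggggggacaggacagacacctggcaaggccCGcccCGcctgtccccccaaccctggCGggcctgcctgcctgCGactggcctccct
Fos, HC-only cluster, covered in PC, chr12:85473640-85473939 (+): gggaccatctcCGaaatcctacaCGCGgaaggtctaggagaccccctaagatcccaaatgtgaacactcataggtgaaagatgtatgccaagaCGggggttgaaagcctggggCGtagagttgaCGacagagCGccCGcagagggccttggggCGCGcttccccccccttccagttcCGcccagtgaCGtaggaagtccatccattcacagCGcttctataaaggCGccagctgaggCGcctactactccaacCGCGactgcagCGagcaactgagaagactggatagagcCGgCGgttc
Nr4a1, shared cluster, covered in PC, chr15:101266596-101266895 (+): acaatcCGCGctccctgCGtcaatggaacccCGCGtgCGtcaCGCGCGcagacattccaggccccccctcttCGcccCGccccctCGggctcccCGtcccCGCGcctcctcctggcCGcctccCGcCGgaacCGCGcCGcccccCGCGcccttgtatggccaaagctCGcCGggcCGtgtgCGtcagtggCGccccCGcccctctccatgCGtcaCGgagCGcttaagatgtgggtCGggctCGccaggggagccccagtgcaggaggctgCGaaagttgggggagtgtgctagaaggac
The 6 windows held 18, 23, 27, 13, 20 and 35 CpG dinucleotides in that order, beside a median of 18 over HC-only, 11 over shared and 7 over all 31365 autosomal promoters of the table. The Sox6 window was below the median of its class.

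Members covered 5.41 Mb, or 11.9%, of the PC list and 4.28 Mb, or 11.1%, of the HC list. PC members ran from 11200 bp of covered length at the bottom to 82200 bp, and HC members from 9000 to 77200 bp. The median PC-only cluster held 14400 bp in 4 regions, and the median HC-only cluster 10400 bp in 4 regions. Shared clusters were longer, with medians of 16800 bp in the PC list and 14400 bp in the HC list. The bottom of each list was tied: 7 PC members had 11200 bp and 20 HC members had 9000 bp. Just inside were Pxn, a cluster 38254 bp from Chd2, and Xylt1 in the PC list, at 11200 bp. Just outside at the same 11200 bp were a cluster near Chst15, and Poc1a and Eef2. In the HC list Mideas, Ahnak2 and Farp1 were just inside, and Maff, Anks1 and Lzts2 just outside, at 9000 bp each.

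**Figure D1:**
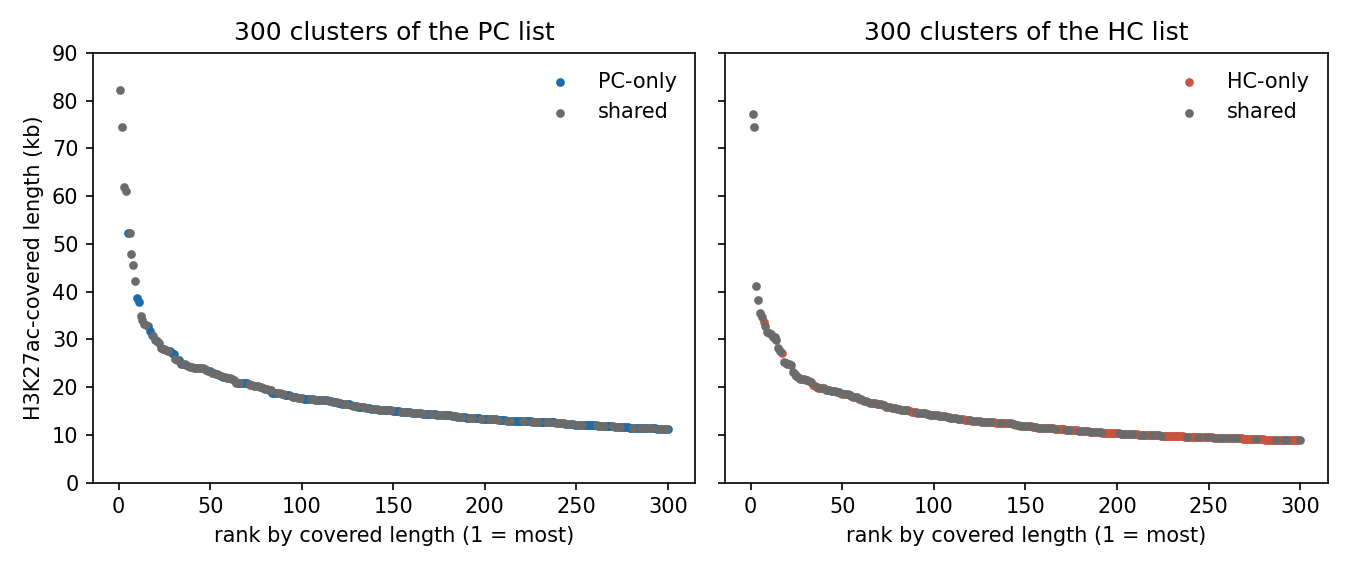
H3K27ac-covered length in kb (y) against rank (x) for the 300 clusters taken from each list, with 1 point per cluster and colours for the class. Shared clusters hold the top ranks of both lists, from 82.2 kb in PC and 77.2 kb in HC, and the curves flatten towards 11.2 and 9 kb at rank 300.

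The number of H3K27ac base pairs called per library differed widely and touches every class. The 3 PC libraries covered 96.5, 68.5 and 84.1 Mb of the autosomes, whereas the 2 HC libraries covered 44.8 and 90.03 Mb. The deposited lists give no read counts, so the sequencing depth is unknown. Labels were checked with marker genes by the share of each gene body, with 2 kb on each side, covered by H3K27ac. The 37 cartilage matrix genes had medians of 27.2 to 38.8% in PC libraries and 6.09 and 13.2% in HC libraries. Col10a1, the collagen that defines hypertrophic chondrocytes, was covered over 9, 0 and 0% in PC libraries and over 32.4 and 14.4% in HC libraries. The 32 hypertrophic genes as a list had medians of 8.73 to 12.9% in PC and 2.48 and 9.18% in HC, and Mmp13 and Spp1 were at 0 in all 5 libraries. Ihh, the Hedgehog ligand of prehypertrophic cells, was covered over 1.93, 7.72 and 0% in PC and 0% in both HC libraries. The label of the HC libraries was therefore met by Col10a1 but not by these other markers. The HC mice alone carry a Col10a1-driven transgene, and its sequence cannot be told apart from the native gene in these lists. Among markers of other cells, the median of 20 muscle genes was 0.0354 to 0.419% in PC and 3.51 and 9.16% in HC. That of 20 epidermis genes was 2.84 to 6.19% in PC and 8.17 and 12.8% in HC. The 18 endothelium genes had medians of 0.592 to 4.59% in PC and 3.43 and 4.26% in HC, the 15 blood cell genes 0.435 to 5.88% in PC and 1.07 and 9.31% in HC, and the 19 neural genes 0.788 to 3.51% in PC and 0 and 1.47% in HC. The part of other cells in the results was not tested.

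Because H3K27ac set the classes, its values describe them and support nothing. A lower coverage in sorted cells may mean fewer cells with the mark or less of it per cell, which cannot be told apart. PC-only clusters had median coverage of 91.5, 83.0 and 77.0% in PC libraries 3, 5 and 8, and of 23.1 and 54.7% in HC libraries 5 and 7. Every PC value lay above every HC value in 134 of the 161. HC-only clusters had medians of 70.2 and 87.4% in the HC libraries, and still 73.3, 58.5 and 57.1% in the PC libraries. Every HC value lay above every PC value in only 54 of the 159. All 159 HC-only clusters held regions of the PC list, and 72 of them overlapped a PC cluster of rank 600 or better. Of the 161 PC-only clusters, 11 held no region of the HC list and 30 overlapped an HC cluster of rank 600 or better. The HC-only class thus held clusters that were also acetylated in PC. At the median, the PC list covered 67.9% as many base pairs of an HC-only cluster as the HC list did. The lower bounds of the lists differed, at 11200 bp in PC and 9000 bp in HC. A cluster covered as much in PC, such as that of Sox6, could therefore be HC-only.

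**Figure D2:**
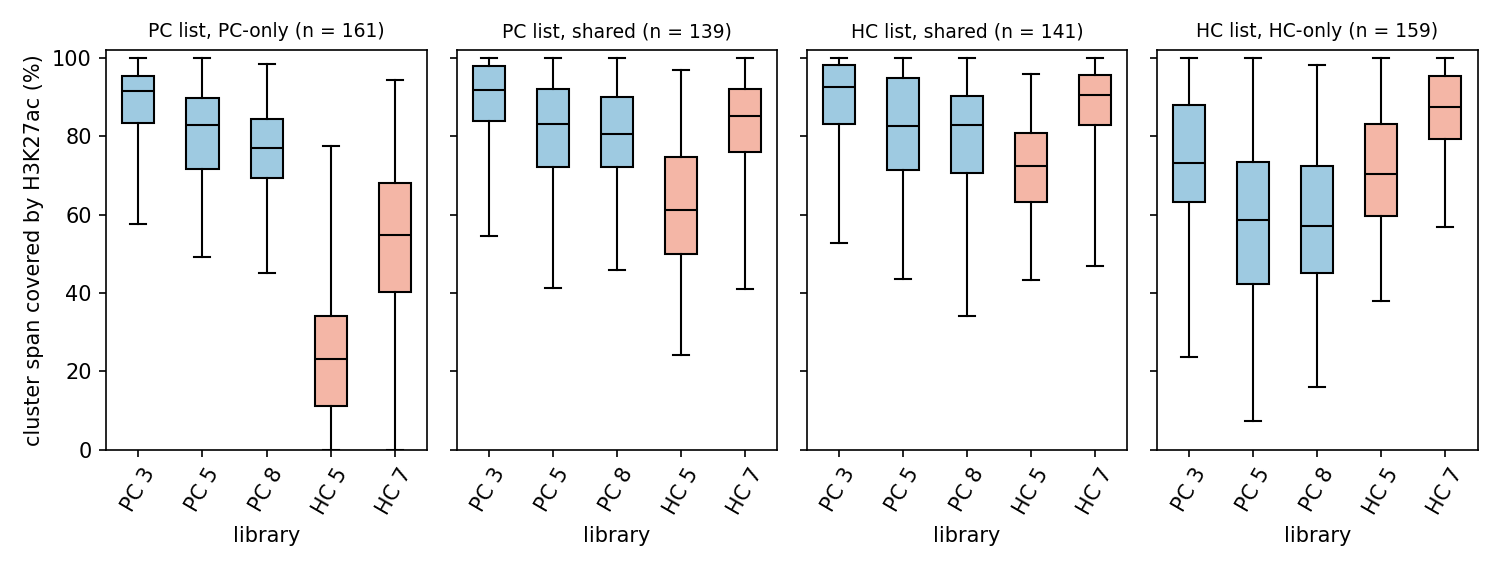
Percent of each cluster's span covered by H3K27ac (y) in the 3 PC and 2 HC libraries (x), for the 4 combinations of list and class. Boxes are quartiles, lines medians, and whiskers the lowest and highest cluster; PC-only clusters have medians of 23.1 and 54.7% in HC libraries, and HC-only clusters 57.1 to 73.3% in PC libraries.

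Clusters mostly lay over genes. No share over all clusters, or over clusters of like length, was taken for genes or promoters, so these counts have no background. A protein-coding gene body was overlapped by 127 of 161 PC-only clusters (78.9%) and by 134 of 159 HC-only clusters (84.3%). Among shared clusters it was 116 of 139 in the PC list (83.5%) and 115 of 141 in the HC list (81.6%). Promoters off chromosome 18, for which none was in the table, were overlapped as follows: 69 of 154 PC-only clusters (44.8%) met a promoter window, as did 101 of 154 HC-only clusters (65.6%). The clusters over no gene numbered 34 (PC-only) and 25 (HC-only), at a median of 47584 and 41480 bp from the nearest one.

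Cartilage matrix genes lay at 14 of the 161 PC-only clusters. Of 37 cartilage matrix genes, 11 lay within 2 kb of a PC-only cluster (29.7%), and none lay near an HC-only or a shared one. Among all 20665 autosomal protein-coding genes the share near a PC-only cluster was 0.702%. The 11 included Col2a1, Col9a1, Col9a3, Col11a2 and Col27a1, which encode cartilage collagens, Matn3, a matrix linker, and Papss2, Chst11 and Xylt1, enzymes of proteoglycan synthesis and sulfation. Genes are long or short and clusters are long, so these counts carry no test. The Wwp2 cluster at chr8:107455001-107512400 covered 52200 bp, the fifth rank of the PC list. Its H3K27ac coverage was 95.5, 95.1 and 87.8% in PC libraries and 6.27 and 43.6% in HC libraries. A further pair of PC-only clusters lay in Wwp2, of 15000 and 11400 bp, and the former contains miR-140-3p. At Col9a1, a cluster of 24800 bp was covered over 91.9, 89.9 and 78.5% in PC libraries and over 0 and 29.5% in HC libraries.

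Col2a1, the main collagen of cartilage, had a cluster of 17000 bp in its body at chr15:97981201-98001200, with coverage of 98, 97 and 78% in PC and 1 and 37% in HC libraries. A second cluster of 25600 bp lay between Col2a1 and Senp1 at chr15:98007601-98036800, with 94.5, 90.4 and 83.6% in PC and 8.22 and 34.2% in HC libraries. The PC mice alone carry a Col2a1-driven transgene. Sequence of the transgene and of the native gene cannot be told apart in these lists.

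Transcription factor genes of chondrocytes were found in all classes. Of 26 such genes, 4 lay near PC-only clusters (Sox9, Sox5, Foxc2 and Nfatc1), 4 near HC-only clusters (Sox6, Zfp219, Arid5b and Nfib) and 2 near shared ones (Foxc1 and Nfatc2). Sox5 held PC-only clusters of 37800 and 14400 bp. In the larger, H3K27ac coverage was 93.6, 89.0 and 79.7% in PC libraries and 1.69 and 28.8% in HC libraries. Sox9 held a cluster of 12800 bp at chr11:112776201-112789200, with 100, 92.3 and 96.9% in PC libraries and 43.1 and 63.1% in HC libraries. The Sox6 cluster of the HC-only class, 9000 bp, was covered over 100, 100 and 96.2% in PC libraries and 78.8 and 98.1% in HC libraries, and the groups overlapped.

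No gene of the hypertrophic chondrocyte list lay near an HC-only cluster. Of all coding genes, 0.702, 0.987 and 0.847% lay near PC-only, HC-only and shared clusters, and these shares are the background for each list. With so low a share, none among 32 genes is near the background. Of its 32 genes, 3 lay near PC-only clusters and 1, Mef2d, near shared ones. The 3 were Ptch1, the Hedgehog receptor, Pth1r, the receptor of PTHrP, which holds chondrocytes back from hypertrophy, and Sp7, a transcription factor of bone and late cartilage. Ptch1 and Pth1r were also the 2 genes of the Hedgehog and PTHrP list (21 genes) at PC-only clusters, and Boc and Gnas the 2 at HC-only clusters. Fgfr2 and Spry2 were the genes of the FGF list (21 genes) at PC-only and HC-only clusters. Of 40 Wnt genes, 3 lay near PC-only clusters (Fzd9, Ror2 and Tcf7l1), 1 near HC-only (Tcf7l2) and 1 near shared (Ror2) ones. Of 26 nuclear receptor and retinoic acid genes, 3 lay near PC-only (Rarg, Rxrb and Cyp26b1), 3 near HC-only (Thra, Ppard and Nr2f2) and 2 near shared (Rara and Nr1d1) clusters.

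The 10 longest HC-only clusters were in or near Zmiz1, Cebpb, Notch2, Ccnd3, Septin9, Shb, Lmna, Dab2ip, Fos and Zfp36l2. The Zmiz1 cluster, in the gene of a transcriptional coregulator, covered 33600 bp, with H3K27ac over 60.2 and 88.9% in HC libraries and 70.1, 48.3 and 35.6% in PC libraries. A cluster 47768 bp from Cebpb, which encodes a leucine zipper factor, covered 31400 bp, with 58.9 and 84.1% in HC and 78.7, 41.9 and 36.8% in PC libraries. The first PC library lay within the HC range at both. Of 40 immediate early and stress genes, induced quickly by growth signals or stress, 7 lay near HC-only clusters (17.5%) and none near PC-only ones, with a background of 0.987% of coding genes near HC-only clusters. The 7 were Fos, Ier3, Ier5, Klf6, Dusp1, Txnip and Per1. The other 4 on that list at members, Junb, Ier2, Nr4a1 and Zfp36, were at shared clusters. Among limb and axial patterning genes, Meis1, Tbx3, Prrx1 and Twist1 lay near HC-only clusters, Uncx and Zic1 near PC-only ones, and Meis2 and Tbx2 near shared ones. At Tbx3 the HC libraries had 75.2 and 68.0% and the PC libraries 46.4, 29.6 and 31.2%, without overlap. Igf2r, Ccn4 and Tead3 were the HC-only genes among 25 of the IGF, CCN and YAP/TEAD list, with Igf2 and Amotl2 at shared clusters.

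Shared clusters were led by Hox and imprinted genes. Of 39 Hox genes, which set position along the body and limb, 30 lay near shared clusters (76.9%) and none near the other classes, in a few long clusters, so the genes are not independent. The HoxA cluster ranked first in both lists, with 82200 bp in PC and 77200 bp in HC. Its PC interval was covered over 96, 91.6 and 94% in PC and 76.9 and 86.2% in HC libraries. The region of Tnnt3, Mrpl23 and H19 covered 74400 bp in PC and, at the best-ranked HC cluster, 41200 bp. Of 34 imprinted genes, expressed from the maternal or the paternal copy alone, 7 lay near shared clusters (H19, Igf2, Dlk1, Mest, Grb10, Ddc and Usp29), 3 near PC-only (Usp29, Airn and Ppp1r9a) and 3 near HC-only ones (Igf2r, Airn and Gnas). This list was added after the members were seen. In the BMP and TGF-beta list, 6 of 43 genes were at shared clusters: Smad6, Smad7, Id1, Id3, Tgfbr3 and Tgfbi, of which the SMAD genes encode inhibitors and the Id genes targets of the pathway. Of 20 Notch genes, 3 were at shared (Notch1, Notch2 and Hes1), 2 at HC-only (Notch2 and Jag1) and 1 at PC-only clusters (Notch2). Malat1 and Neat1, on the housekeeping list of 21 genes, shared a cluster, and Neat1 was also near an HC-only one.

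Few markers of other tissues lay at members. Of 20 muscle genes 2 (Tnnt3 and Tnni2, both beside the H19 region) lay at shared clusters, and of 18 endothelium genes 2 (Erg, which is also expressed in developing joints, and Fli1) at PC-only clusters. These shares, 10 and 11.1%, are above the 2.44% of all coding genes near any member. None of 15 blood cell, 20 epidermis and 19 neural genes lay near a member. In the perichondrium, tendon and joint list, 3 of 27 genes (Erg, Tnc and Sparc) were PC-only and 2 (Col1a1 and Col6a1) shared.

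**Figure D3:**
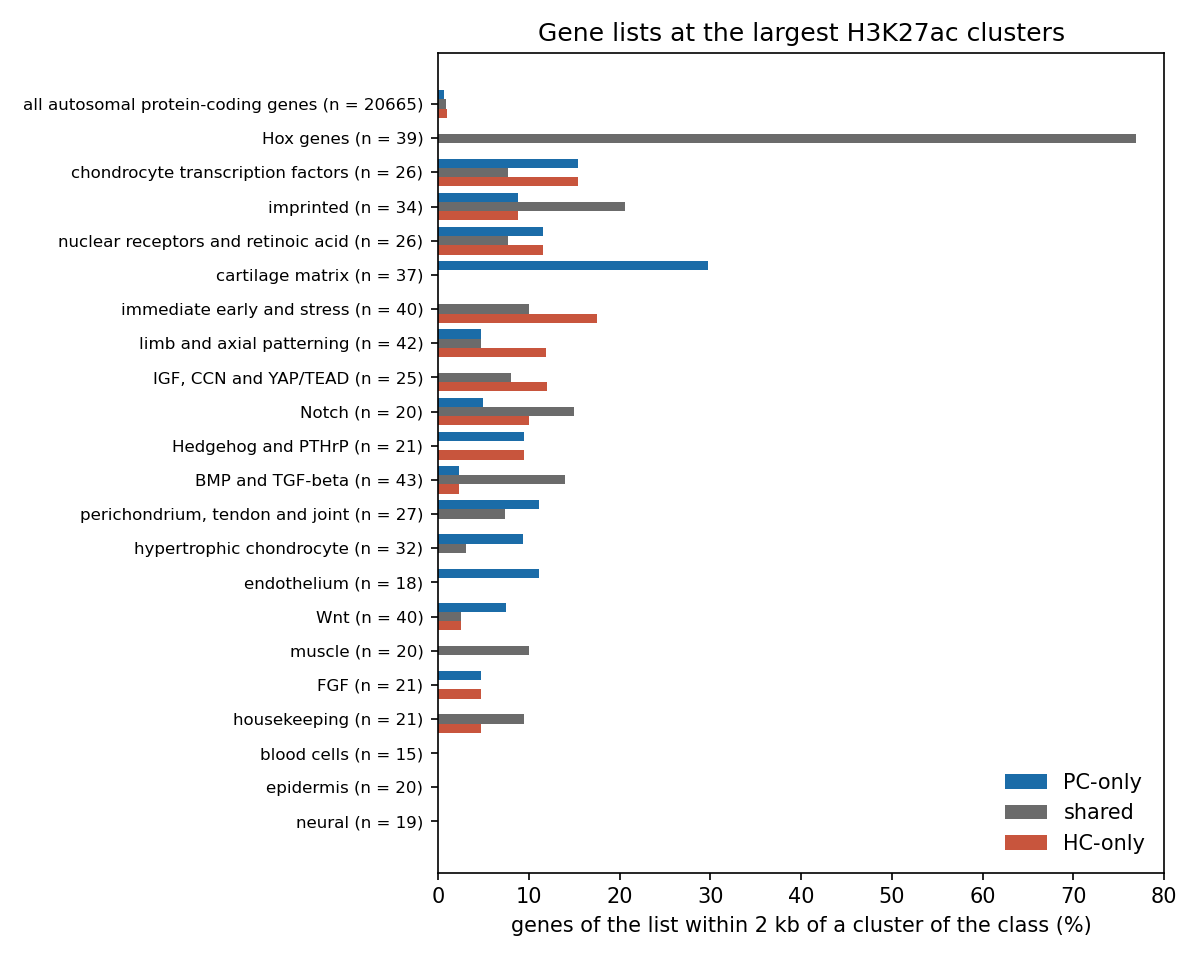
Percent of each list's genes (x) within 2 kb of a PC-only, shared or HC-only cluster, by gene list (y), with all autosomal protein-coding genes at the top. Cartilage matrix genes reach 29.7% for PC-only clusters and 0 for the others, and Hox genes 76.9% for shared clusters.

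The other 5 marks were not used to choose the clusters. Each was measured as the percent of a locus covered in each library, over all 6862 loci spanning 3 kb or more, with limma and Benjamini-Hochberg adjustment. A second rule without a p asked whether all values of one cell type lay above all of the other. With fewer libraries that rule is easier to meet, so its counts tend to rise when a library is left out. The share of all loci is given with every library kept, and for some counts at equal covered length. Other counts, among them all with a library left out, have no background here. H3K9ac was lower in HC libraries at most PC-only loci by the second rule: 126 of 161 (78.3%) had every HC value below every PC value, and none the reverse. The share was 17.2% over all loci of 3 kb or more, and 33.8% over those of 10 kb or more, which are closer to the members in length. Among shared loci it was 60 of 137 (43.8%), and among HC-only loci 21 of 159 (13.2%). Of the 158 PC-only loci above 0 in at least 2 libraries, 46 were at 0 in both HC libraries, so they could not show the reverse. At equal covered length the PC-only count was 92 (57.1%), against 9.15% of all loci. Without HC library 2 the shared count was 100 and the HC-only count 45. Without PC library 2 the HC-only count was 39, and without PC library 3 it was 32. None of these loci passed limma at an adjusted p under 0.05, and of all loci 0% did. At an unadjusted p under 0.05, limma counted 68 member loci lower and 4 higher in HC, and 50 lower and 27 higher with the library number as a block. The H3K9ac libraries covered 52.8, 34.5 and 31.9 Mb in PC and 34.0 and 28.9 Mb in HC.

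Sox5 gave the greatest H3K9ac difference among member loci whose groups did not overlap. Its locus at chr6:144195601-144212000 was covered over 76.8, 58.5 and 56.1% in PC libraries and 8.54 and 6.10% in HC libraries, a difference of -56.5 percentage points (SE 8.73, limma adjusted p 0.217). Col2a1 had 87, 37 and 43% in PC and 4 and 2% in HC libraries. The first Wwp2 locus had 56.4, 29.6 and 47.0% in PC libraries and 0% in both HC libraries. A shared locus at Syt8, upstream of the H19 region, had 69.8, 37.2 and 67.4% in PC and 8.14 and 10.5% in HC libraries. All 4 loci were marked in each PC library and covered over 10.5% or less in the HC libraries.

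Counts in the other direction were smaller. Among HC-only loci, every HC value of H3K9ac lay above every PC value at 14 of 159 (8.81%), against 3.13% of all loci of 3 kb or more and 2.99% of those of 10 kb or more. When each library was trimmed to the same covered length, this count was 35, against 5.87% of all loci. Leaving out PC library 1 gave 49 and leaving out HC library 3 gave 32. The greatest difference was in Kcnrg, at 45.6, 31.6 and 42.1% in PC and 66.7 and 73.7% in HC libraries. E2f2, a cell cycle transcription factor gene, had 39.3, 33.9 and 35.7% in PC and 57.1 and 62.5% in HC libraries. Tbx3, a T-box factor gene of the limb, had 27.2, 24 and 24% in PC and 33.6 and 34.4% in HC libraries. At Fos the values were 35.5, 29.0 and 32.2% in PC and 31.7 and 27.9% in HC libraries, and the groups overlapped.

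H3K4me3 was lower in HC at fewer loci. Every HC value was lower at 33 of 161 PC-only loci (20.5%) and higher at none, with backgrounds of 4.23% and, at 10 kb or more, 6.84%. It was lower at 3 of 137 shared (2.19%) and 4 of 159 HC-only loci (2.52%). Of the 138 PC-only loci above 0 in at least 2 libraries, 38 were at 0 in both HC libraries and could not be higher. HC-only loci had 7 of 159 higher (4.40%), beside 2.11% of all loci, a count that became 44 without HC library 5 and 12 without PC library 2. No locus passed limma in either direction (0% of all loci), with 10 member loci lower and 1 higher at an unadjusted p under 0.05. No share of all loci is given for counts with a library left out, so they cannot be set beside these backgrounds. PC library 7 covered 29.2 Mb against 41.7 and 45.3 Mb in the other PC libraries. Leaving it out gave 122 PC-only loci in place of 33. Without HC library 2 there were 65. Uncx, which encodes a homeobox factor of vertebral development, had 85.7, 92.2 and 50.6% in PC and 31.2 and 11.7% in HC libraries. Ptch1 had 95.2, 93.7 and 69.0% in PC and 46.0 and 37.3% in HC libraries. Zbtb7a, the HC-only locus with the greatest difference in that direction, had 43.8, 46.6 and 34.2% in PC and 57.5 and 56.2% in HC libraries.

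H3K36me3, the mark of transcribed gene bodies, was lower in every HC library at 60 of 161 PC-only loci (37.3%) and higher at 3. Backgrounds were 10.1% and, at 10 kb or more, 17.9%. At equal covered length the count was 31, against 4.27% of all loci, and without HC library 7 it was 96. At HC-only loci 19 of 159 were higher (11.9%), beside 4.59% of all loci, and 33 at equal covered length, 40 without PC library 6 and 45 without HC library 5. No locus passed limma (0%), and at an unadjusted p under 0.05 there were 30 member loci lower and 2 higher in HC. Of the 156 PC-only loci above 0 in at least 2 libraries, 15 were at 0 in both HC libraries and could not be higher. Trpv4, an ion channel gene active in chondrocytes, had 84, 65.3 and 70.7% in PC and 0 and 1.33% in HC libraries. Col9a1 had 100, 75.8 and 96.6% in PC and 0 and 56.4% in HC libraries, far apart in the latter pair. At Wwp2 the groups overlapped, with 88.9, 62.4 and 87.5% in PC and 76.3 and 79.1% in HC libraries over its longest cluster. The H3K36me3 libraries covered 468, 468 and 596 Mb in PC and 368 and 461 Mb in HC.

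**Figure D4:**
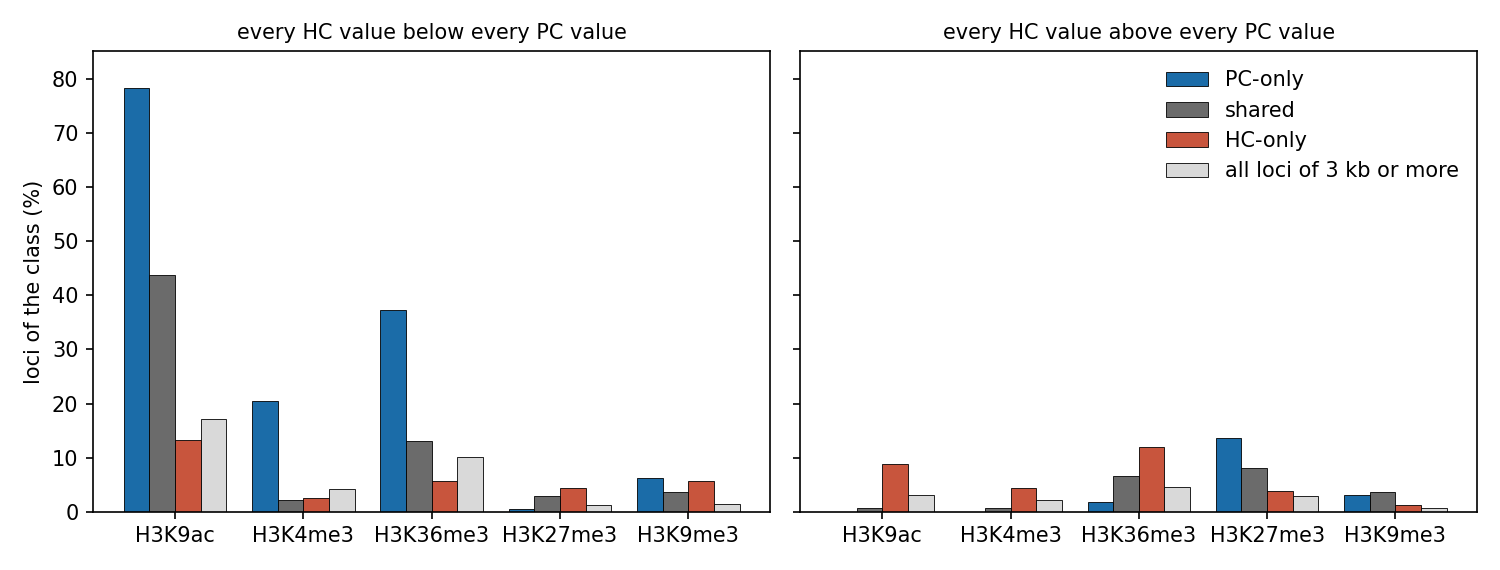
Percent of the loci of each class (y) at which every HC value lay below (left) or above (right) every PC value, for the 5 marks not used in the choice (x), with all loci of 3 kb or more in light grey. H3K9ac was lower in HC at 78.3% of PC-only, 43.8% of shared and 13.2% of HC-only loci.

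H3K27me3 was the mark with individual calls. Limma called 14 of 161 PC-only loci higher in HC (8.70%) and none lower, 5 of 137 shared loci higher (3.65%), and 2 HC-only loci higher and 2 lower of 159 (1.26% each). Among all loci of 3 kb or more 1.59% were called higher and 0.437% lower, and at 10 kb or more 3.59% were called higher. Most members had no H3K27me3 at all, with 103 of 161 PC-only loci at 0 in every library. The filter of 2 libraries above 0 was passed by 38 PC-only loci, 12 of them through the HC libraries alone. Such a locus had to differ, so its call is a description and no p is given for it. That holds for 8 of the 14 PC-only calls (Sox9, Fli1, Sp7, Sox5, Ptch1, Col27a1, Spsb1 and Col9a3) and for 1 shared call, Zfhx4. With a PC value above 0 there remained 6 PC-only loci (3.73%), 4 shared loci (2.92%) and 2 HC-only loci called higher, beside 0.525% of all loci of 3 kb or more and 1.88% of those of 10 kb or more. Leaving out a PC library gave 8 or 9 PC-only calls, and leaving out HC library 2 or 3 gave 2 each, of which 1 and 2 were among the 14. Of the 6 loci with a PC value above 0, which could be fitted each time, Mecom was called in every such fit, Gmds in 3 of 5, Dysf in 2, Col2a1 in 1, and Cyp26b1 and Scarf2 in 0. At equal covered length 14 PC-only loci were called, 12 of them the same. The H3K27me3 libraries covered 74.7, 57.5 and 59.2 Mb in PC and 63.2 and 73.2 Mb in HC. On simulated data the H3K27me3 fit made more false calls than its nominal rate, so single calls with an adjusted p near the threshold are less sure. The H3K27me3 libraries covered 74.7, 57.5 and 59.2 Mb in PC and 63.2 and 73.2 Mb in HC.

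The called PC-only loci included genes of the chondrocyte program. Sox9, the master regulator of cartilage, had 0% in all 3 PC libraries and 100 and 96.9% in the HC libraries, a difference of 98.5 percentage points. Sp7 had 0% in each PC library and 47.2 and 58.3% in HC libraries. The Sox5 locus at chr6:144195601-144212000 had 0% in each PC library and 34.1 and 53.7% in HC libraries. These loci passed the filter through the HC libraries alone, so their groups had to differ. H3K27ac was still present in the HC libraries over 43.1 and 63.1% of the Sox9 cluster.

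Of the 14 PC-only clusters at cartilage matrix genes, 3 were called higher, over shorter stretches, beside 14 of all 161 PC-only loci (8.70%). Among the 3, only Col2a1 had a PC value above 0, beside 6 of all 161 (3.73%). Col27a1 and Col9a3 passed the filter through the HC libraries alone, so their calls are a description. Col2a1 had 2% in each PC library and 18 and 14% in HC libraries (limma adjusted p 0.0162). Col27a1 had 0% in PC and 18.6% in both HC libraries. Col9a3 had 0% in PC and 10.1% in both HC libraries. Papss2 went the other way without being called, with 5.56, 9.26 and 9.26% in PC and 0% in both HC libraries. Papss2 passed the filter through the PC libraries alone, so no p is given for it. The edges of H3K27me3 regions lie on an 800 bp grid, so equal values in a pair of libraries come easily. Ptch1 had 0% in PC and 23.0% in both HC libraries, and Pth1r, which was not called, had 0% in PC and 25.7 and 14.3% in HC libraries.

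The remaining PC-only calls were regulators and others. Fli1, an ETS factor gene, had 0% in PC and 65.7 and 98.5% in HC libraries. Cyp26b1, the enzyme that degrades retinoic acid, had 0, 28.1 and 9.38% in PC and 78.1 and 100% in HC libraries. Mecom, a zinc finger factor gene, had 36.9, 36.9 and 40% in PC and 100% in both HC libraries (limma adjusted p 0.00115). Scarf2, Gmds, Dysf and Spsb1 made up the 14. Shared loci called higher were Zfhx4, HoxA, Nfatc2, Tpm1 and Dlk1. HoxA had 60.9, 73.2 and 63.2% in PC and 100 and 97.7% in HC libraries over the locus at chr6:52157001-52261400 (limma adjusted p 0.0365). Tpm1, a tropomyosin gene, had 1.39, 1.39 and 0% in PC and 26.4 and 27.8% in HC libraries (limma adjusted p 0.00231). Under 5 other settings with every library kept, Tpm1 was called in 5, HoxA and Nfatc2 in 4 each, and Dlk1 in 2. HoxA and Dlk1 lost the call in most fits that left out 1 library.

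HC-only loci were called both ways in H3K27me3. Zbtb7a, a transcriptional repressor gene, had 52.1, 57.5 and 52.1% in PC and 27.4% in both HC libraries (limma adjusted p 0.0147), and Lrrfip1 had 30.8, 30.8 and 38.5% in PC and 0 and 7.69% in HC libraries (limma adjusted p 0.0302). Twist1, a mesenchyme factor gene, had 35.9, 10.9 and 0% in PC and 100% in both HC libraries (limma adjusted p 0.0322). Sox6 had 37.7, 52.8 and 37.7% in PC and 100% in both HC libraries (limma adjusted p 0.0158). Of 5 fits that each left out 1 library, Zbtb7a was called in 3, Twist1 and Sox6 in 1 each and Lrrfip1 in 0.

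**Figure D5:**
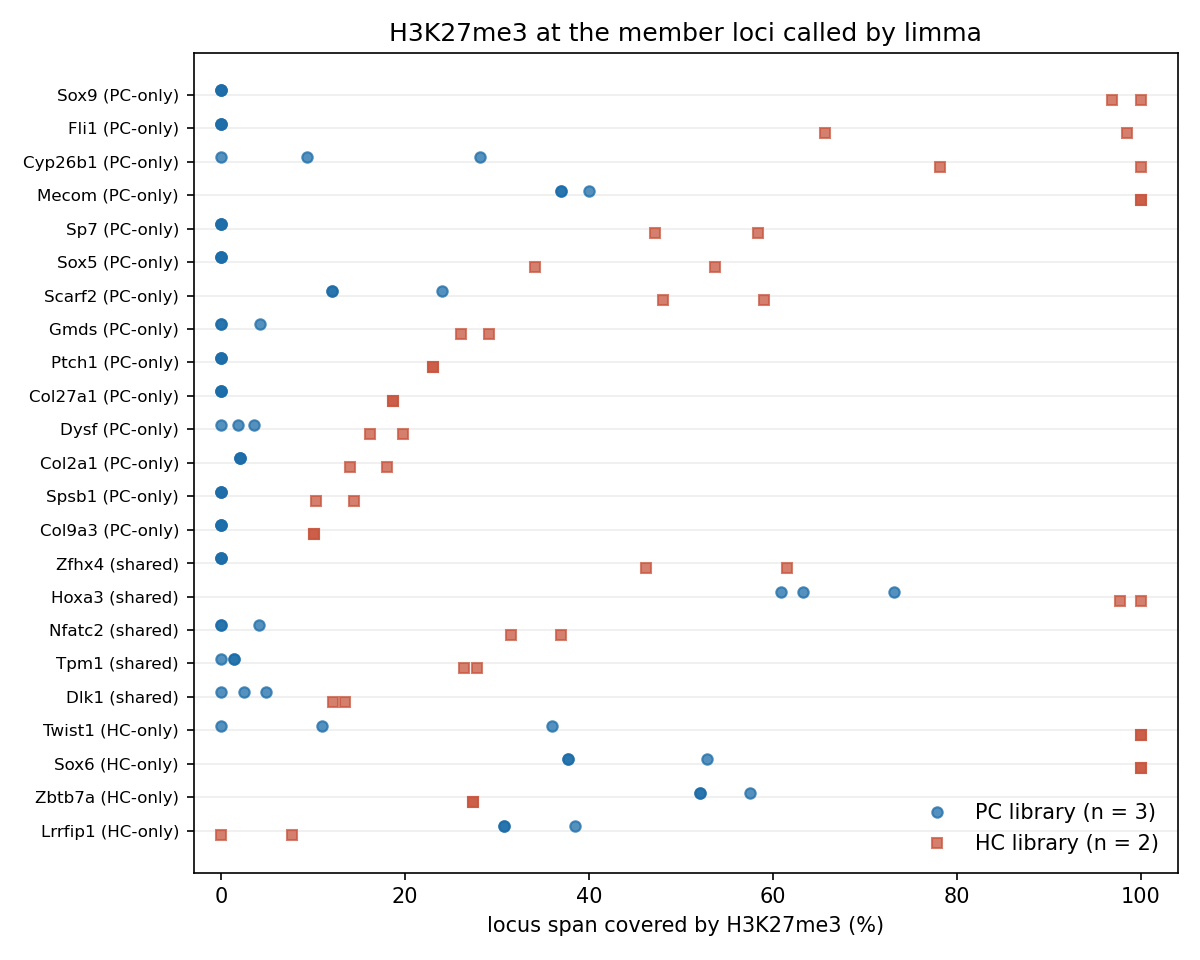
Percent of the locus span covered by H3K27me3 (x) in each PC (circles) and HC (squares) library at the 23 member loci that limma called (y), 21 higher and 2 lower in HC. PC and HC values do not overlap at any of the 23. At 8 PC-only loci and at 1 shared locus every PC value is 0. Those loci passed the filter through the HC libraries alone, so they had to differ and their calls are a description. Sox9, at 0% in PC and 100 and 96.9% in HC libraries, is among them.

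In promoter windows the same mark differed at a few genes, a count made without a test. Windows without H3K27me3 in PC libraries and wholly covered in both HC libraries numbered 6 of 108 in PC-only clusters (5.56%), 4 of 184 in HC-only clusters (2.17%) and 3 of 214 in shared clusters (1.40%), against 0.708% of all promoters. The genes were Col27a1, Erg, Pth1r, Spsb1 and Gm35775 in PC-only clusters, Sox6, Sox6os, Twist1 and Ankrd34a in HC-only clusters, and Tpm1, Nfatc2 and A330001L22Rik in shared clusters. Windows of 1 gene lie close together, so they are not independent. The reverse, full coverage in every PC library and none in HC, was seen at no window in PC-only clusters, 2 in HC-only clusters (Fos and Gm16174) and 2 in shared clusters (Nr4a1 and Gm26728), against 0.182% of all promoters. Fos and Nr4a1 are both immediate early genes. Over the whole Fos locus H3K27me3 was 17.5, 15.3 and 13.1% in PC and 6.56 and 8.74% in HC libraries (limma adjusted p 0.118). Over Nr4a1 it was 8.63, 11.5 and 14.4% in PC and 0% in HC libraries. Neither locus passed the threshold. Nr4a1 passed the filter through the PC libraries alone, so no p is given for it.

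Sequence motifs were counted on both strands of the same windows: ACAAAG or ACAATG for SOX factors, ACCACA for RUNX factors and TGANTCA for AP-1. SOX motifs were in 16.7% of 108 PC-only, 20.1% of 184 HC-only and 20.1% of 214 shared windows, against 28.1% of all promoters. RUNX motifs were in 10.2, 15.2 and 11.7% in that order, against 16.7%. AP-1 motifs were in 2.78, 8.15 and 6.54%, against 7.85%. Member promoters were richer in GC, with medians of 56.7% (PC-only), 62.5% (HC-only) and 56.3% (shared), against 53% over all promoters, and base composition moves with such short motifs. A motif here is a match of letters and not a site in use. Distal sequence of the clusters was not analysed here.

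H3K9me3 covered little of most members, with a median of 0% in each class in 4 of the 5 libraries and 5.59 to 6.90% in PC library 6. It was at 0 in every library at 35 of 161 PC-only, 49 of 159 HC-only and 26 of 137 shared loci. No member locus passed limma (0.0146% of all loci did), with 1 lower and 4 higher at an unadjusted p under 0.05. Every HC value was lower at 10 of 161 PC-only and 9 of 159 HC-only loci (6.21 and 5.66%), beside 1.47% of all loci and 3.42% of those of 10 kb or more. At equal covered length these counts were 1 and 4, without PC library 2 they were 18 and 15, and without PC library 3 they were 25 and 17. Every HC value was higher at 5 and 2 of them (3.11 and 1.26%), beside 0.641%. Of the 58 PC-only and 38 HC-only loci above 0 in at least 2 libraries, 30 and 19 were at 0 in both HC libraries. Such loci could not be higher in HC. Foxc2, a forkhead factor gene, had 0, 10.1 and 30.4% in PC and 84.8 and 81.0% in HC libraries. Zeb2, a zinc finger factor gene at an HC-only cluster, had 62.3, 31.2 and 51.9% in PC and 0% in HC libraries. The H3K9me3 lists covered 177 to 218 Mb in PC and 203 and 123 Mb in HC libraries.

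Some members lay in runs. Within 100 kb of each other there were 3 PC-only clusters in each of Dnm3, Fndc3b and Wwp2 or beside them, and HC-only clusters formed 2 runs of 3 in and around Rad51b, which end at Zfp36l1. Shared clusters from Syt8 to Igf2, around H19, numbered 4 in the PC list and 5 in the HC list. Dnm3 also holds the shared cluster with miR-199a and miR-214. In the Dnm3 locus at chr1:162033801-162046400 H3K9ac was 49.2, 46.0 and 38.1% in PC and 7.94 and 0% in HC libraries (limma adjusted p 0.244). The shared locus with the microRNAs, chr1:162197201-162226400, had 42.5, 35.6 and 37.0% in PC and 28.1 and 24.7% in HC libraries. The groups did not overlap in either, with a difference of -40.5 and -12.0 percentage points.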

How the data were processed

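The authors deposited region coordinates with no score, read count or depth: a list for every library, and an intersected list for each cell type and mark. Per the submitters' processing notes, FastQC, Picard and build mm10 were used. The sources used here do not name the aligner, the caller, the use of IgG or the way lists were intersected. The intersected H3K27ac lists held 100% of the base pairs covered in every library, and 91.6% (PC) and 93.5% (HC) of each list was so covered. Region edges fall on a 200 bp grid for H3K4me3, H3K9ac and H3K27ac and an 800 bp grid for the others.

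Clusters were built and compared with Python 3.11.15. Each mark was fitted on its own with limma 3.58.1 (trend and robust; R 4.3.3) on percent covered, among loci of 3 kb or more with a value above 0 in at least 2 libraries, and p-values were adjusted over all of them by Benjamini-Hochberg at 0.05. The code was tested on simulated data, where the H3K27me3 fit made more false calls than its nominal rate. Genes, promoters and microRNAs are RefSeq's for GRCm38.p6, the assembly of mm10. Named items follow a rule: the 10 longest clusters of each class, clusters at cartilage matrix, chondrocyte transcription factor and hypertrophic genes, for each mark, in each direction, the 5 loci that differed most among those called (or, with none called, among those whose groups did not overlap), and the clusters beside the lower bound. The other H3K27me3 calls, promoters, microRNAs, Nr4a1, Dnm3 and genes of other lists were named after their values were seen. Members, gene lists and tests were chosen with earlier results of these data known. Alternatives changed join distance, number taken, ranking, overlap, promoter regions, span, scale, filter, covered length, gene margin and the libraries used. A result on 1 gene is not reported here.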

Additional observations from a re-analysis of the deposited data

How the results depend on the processing

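The share of members that were shared, 46.3% in PC and 47.0% in HC, stayed between 42.0 and 51.7% under every alternative but 1. Leaving out 1 library in turn gave 42.3 to 46.0% in PC and 39.0 to 47.3% in HC, the lowest without HC library 5. For H3K27me3, the 2 member loci called lower became 4 among loci of 10 kb or more and 7 on the log2(percent + 1) scale. Leaving out 1 library gave 0 to 5 lower and 3 to 13 higher in place of 2 and 21, and 2 to 9 PC-only calls in place of 14, of which 1 to 8 were among the 14. For H3K9ac, 0 lower became 5 with no minimum span and 6 on the log2 scale. Leaving out 1 library gave no call, while PC-only loci with groups apart ranged from 127 to 143 in place of 126, and HC-only loci higher from 14 to 49 in place of 14, with 35 at equal covered length. Shared loci lower ranged from 60 to 100 in place of 60, and HC-only loci lower from 23 to 45 in place of 21, with 11 at equal covered length. For H3K4me3, leaving out 1 library gave 0 to 9 member loci lower in place of 0, 33 to 122 PC-only loci apart in place of 33, and 8 to 44 HC-only loci higher in place of 7, with 11 at equal covered length. For H3K36me3, 0 lower became 4 with no minimum span and 0 to 8 without 1 library, and the 60 PC-only loci apart became 31 at equal covered length and 63 to 96 without 1 library, while the 19 HC-only loci higher became 33 and 24 to 45. For H3K9me3, 0 lower and 0 higher became 2 and 2 with no minimum span, 0 to 11 and 0 to 3 without 1 library, and 1 higher at 10 kb or more and 2 higher without trend and robust settings. The 10 PC-only and 9 HC-only loci lower became 1 and 4 at equal covered length and 10 to 25 and 9 to 17 without 1 library. Counts of loci with groups apart tend to rise when a library is left out, because the rule then has fewer values to separate. Their share over all loci is not given for those settings, so they have no background. No other cause of these changes was tested. With no filter on low values, H3K27me3 and H3K9me3 could not be fitted. H3K9ac is the mark with 2 library numbers in both cell types, and the others have 1; deviations of same-numbered libraries correlated by 0.00483 and 0.0651, so the numbers do not pair them; with the replicate block 0 loci were called, as without it, and at an unadjusted p under 0.05 there were 50 lower and 27 higher in place of 68 and 4. With no gene margin every list kept its counts. With 20 kb the share of all coding genes near any member became 3.40% in place of 2.44%. Hox genes at shared clusters became 36 in place of 30, and imprinted genes at members 13 in place of 11. At PC-only clusters, cartilage matrix genes became 12 in place of 11, hypertrophic genes 4 in place of 3 and FGF genes 2 in place of 1. Housekeeping genes at members became 4 in place of 2, and epidermis genes at HC-only clusters 1 in place of 0. BMP and TGF-beta genes at shared clusters became 7 in place of 6. Nuclear receptor and retinoic acid genes became 4 in place of 3 at HC-only and 3 in place of 2 at shared clusters. Where an HC library is left out, the lone one is assumed to vary like the PC libraries. The lists hold no counts, so what depth limits cannot be stated.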
